A study of Mus musculus with 2 samples.

Results

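The 9 genes examined here encode proteins that are used to sort or to trace haematopoietic stem cells (HSCs), namely Slamf1, Cd48, Procr, Fgd5, Cd34, Cd27, Esam, Cd9 and Ctnnal1. They were chosen by name, with earlier results of these data known, and all 9 were among the 32285 genes of the count tables. The list was headed as surface markers, which does not hold for Fgd5 and Ctnnal1: their products are a guanine nucleotide exchange factor and a cytoskeletal catenin-like protein inside the cell, and they mark HSCs through reporter alleles.

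Cells were isolated from lineage-depleted fetal livers of CD1 mouse embryos (an outbred stock) at E14.5, sorted as LSK cells (lineage-negative, SCA1-positive, cKIT-positive) and profiled by 3' droplet single-cell RNA-seq. The embryos were either wild type (WT) for IκBα, the inhibitor that holds NF-κB in the cytoplasm, or knock-out (KO) for it. According to the labels, 2 WT embryos and 3 KO embryos were pooled, giving 1 library per genotype, so no test between genotypes was possible and embryo, library and genotype cannot be told apart. Titles of the samples speak of LT-HSCs, but their cell type is given as LSK.

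In the usual scheme, a long-term HSC (LT-HSC) is an LSK cell that carries CD150, the product of Slamf1, and lacks CD48, both members of the SLAM family of adhesion and signalling receptors. EPCR, the product of Procr, is the endothelial protein C receptor. ESAM is a junction protein shared by HSCs and endothelium, and CD34 is a sialomucin of progenitors and vessels. CD27 is a TNF receptor family member of early progenitors and lymphocytes, and CD9 is a tetraspanin that is abundant on megakaryocytes and platelets. The marker scheme was defined on proteins, and RNA counts of a single cell can be 0 for a protein that is present.

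In GRCm38 coordinates (GENCODE vM21), Cd48 (chromosome 1, 171682009 to 171705258) and Slamf1 (chromosome 1, 171767127 to 171801184) lie on the plus strand as neighbours in the SLAM gene cluster, 61868 bases apart. Procr is on chromosome 2 (155751117 to 155755471), Ctnnal1 on chromosome 4 (56810935 to 56865188), Fgd5 on chromosome 6 (91978878 to 92076004), Esam on chromosome 9 (37528078 to 37538319) and Cd34 on chromosome 1 (194938819 to 194961279). Cd27 (125232622 to 125237010) and Cd9 (125460266 to 125494791) are both on chromosome 6. All 9 are protein-coding, and none overlaps another gene on the same strand. Fgd5, Cd34, Cd27 (with Vamp1) and Cd9 overlap genes of the opposite strand.

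The bases just before the start of 5 of these genes are shown, namely the pair used for sorting (Slamf1 and Cd48) and Procr, Fgd5 and Ctnnal1. The RNA of these last 3 genes was highest in the HSC gate among the progenitor gates. Fgd5 was higher still in the endothelial gate, and Ctnnal1 in the megakaryocyte gate. RefSeq promoters of GRCm38.p6 matched 8 of the 9 genes, all but Esam. Only bases upstream of both the RefSeq and the GENCODE start are printed, 5′ to 3′ on the gene's strand. Slamf1 is from chr1:171766882-171767126 (plus strand), Cd48 from chr1:171681742-171681991 (plus), Procr from chr2:155750967-155751116 (plus), Fgd5 from chr6:91978715-91978877 (plus) and Ctnnal1 from chr4:56865212-56865461 (minus). Capitals mark matches, on either strand, to one of 4 short motifs, which are spelled out after the sequences.
Slamf1: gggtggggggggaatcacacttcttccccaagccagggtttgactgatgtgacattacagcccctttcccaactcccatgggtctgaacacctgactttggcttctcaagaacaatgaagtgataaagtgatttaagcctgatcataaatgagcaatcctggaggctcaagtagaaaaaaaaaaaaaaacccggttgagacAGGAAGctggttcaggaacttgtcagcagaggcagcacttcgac
Cd48: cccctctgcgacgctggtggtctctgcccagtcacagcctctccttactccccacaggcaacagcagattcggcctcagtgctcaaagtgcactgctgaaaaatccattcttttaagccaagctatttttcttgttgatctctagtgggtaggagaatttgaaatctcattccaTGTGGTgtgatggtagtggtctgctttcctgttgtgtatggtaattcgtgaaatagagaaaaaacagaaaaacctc
Procr: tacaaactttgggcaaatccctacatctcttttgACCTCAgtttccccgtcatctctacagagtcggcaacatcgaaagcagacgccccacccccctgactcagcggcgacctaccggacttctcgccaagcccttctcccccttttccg
Fgd5: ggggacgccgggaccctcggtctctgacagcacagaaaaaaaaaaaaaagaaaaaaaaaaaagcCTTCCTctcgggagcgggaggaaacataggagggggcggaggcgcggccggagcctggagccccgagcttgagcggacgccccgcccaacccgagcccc
Ctnnal1: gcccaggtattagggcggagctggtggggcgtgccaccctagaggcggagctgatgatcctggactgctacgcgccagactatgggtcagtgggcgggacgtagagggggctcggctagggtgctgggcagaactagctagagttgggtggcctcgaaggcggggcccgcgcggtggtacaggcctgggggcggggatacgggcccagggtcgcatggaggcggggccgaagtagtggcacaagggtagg
Slamf1 and Fgd5 each held 1 match to the ETS core, Cd48 and Procr each held 1 match to the RUNX core, and Ctnnal1 held none of the 4 motifs. The ETS core was searched as AGGAAG and was held by 29.5% of 32851 RefSeq promoters, over the 250 bases before the start. The RUNX core was searched as TGNGGT and was held by 40.1% of them. The GATA core, searched as AGATAA, was held by 9.99%. The NF-κB core, searched as GGANTTTCC, was held by 1.07%, and neither of these last 2 was found in any of the 8 matched promoters. A match is a run of letters and not a bound site, and windows shorter than 250 bases have fewer places for one.

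There were 3840 barcodes with 109122324 UMIs (unique molecular identifiers) for WT and 4928 with 100029143 for KO. After filtering, 3458 WT cells (median 28065 UMIs) and 4417 KO cells (median 19560 UMIs) remained, and the libraries shared 7 barcodes. Nfkbia, which encodes IκBα, had 1464 UMIs in WT cells (13.6 CPM, that is UMIs scaled to a total of 1000000) and 6 in KO cells (0.0620 CPM). Cells with Y-linked UMIs and without Xist made up 18.1% of the KO library and 0.0901% of the WT library. Each cell was thinned to 8500 UMIs to make detection comparable, which left out 129 WT and 379 KO cells that were shallower.

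Cells were placed in gates by how many genes of a marker panel had a UMI at the thinned depth. None of the 9 genes was used in a gate. The HSC gate asked for at least 2 of Hlf, Mecom, Mllt3, Prdm16, Pdzk1ip1 and Hoxa9, transcription factors and stem cell genes, and no other gate. It held 525 WT cells (15.8%, 95% Clopper-Pearson interval 14.55 to 17.1) and 457 KO cells (11.3%, 10.4 to 12.3). A gate is a range and not a cell type: 270 of the WT and 239 of the KO cells sat at the cut with exactly 2 panel genes, and 332 WT and 301 KO cells in no gate had 1. The median HSC-gated cell had 4 UMIs of the HSC panel and 2 of the neutrophil-primed panel in both libraries. Its medians for the other panels were 0, except for 1 UMI of the hepatocyte panel in KO cells.

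The sort label was checked against the cells. Of WT cells 29.7% and of KO cells 36.1% were in the erythroblast gate, and 13.2% and 13.03% in the early erythroid gate. Ly6a, which encodes SCA1, had 22.9 CPM in the HSC gate of WT and 26.5 in that of KO, against 1.76 and 1.41 over the other progenitor gates (lymphoid-primed, neutrophil-primed, monocyte, early erythroid and erythroblast). Kit, which encodes cKIT, had 102 and 86.5 in the HSC gate against 36.3 and 33.5 over the others. In the early erythroid gate alone, Ly6a was at 0.525 CPM in WT and 0.815 in KO, and in the erythroblast gate at 0.820 and 0.469. Ly6a RNA thus did not bear out the LSK label in these 2 gates, and the reason was not tested.

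Levels are given as CPM of all UMIs of a gate, with a 95% Poisson interval that covers counting error only. Because reads came from the 3' end with 1 UMI per molecule, the values were not divided by transcript length.

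Slamf1 RNA was rare and did not single out the HSC gate. Its level there was 4.28 CPM in WT (3.11 to 5.75, from 44 UMIs) and 4.39 in KO (2.99 to 6.24, from 31 UMIs). The highest level was in the megakaryocyte gate, with 29.6 in WT (21.0 to 40.7) and 21.0 in KO (15.7 to 27.5). The early erythroid gate came after the HSC gate in WT, with 3.30, and before it in KO, with 6.21, and in both libraries the intervals of these gates overlapped. At the thinned depth 13 of 525 WT cells (2.48%) and 19 of 457 KO cells (4.16%) of the HSC gate had a Slamf1 UMI, and 5.90% and 4.81% did so without thinning, so no order of the genotypes is read from these shares. In the erythroblast gate, where CD150 is not a marker, the thinned shares were 0.911% and 1.37%, with median depths of 29394 and 20395 UMIs against 17322 and 13516 in the HSC gate.

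Cd48 RNA was abundant in the HSC gate and in the lymphoid and myeloid gates, and was low in the erythroid gates and in the megakaryocyte gate (19.5 CPM in WT and 18.6 in KO). It had 98.1 CPM in WT HSC-gated cells (92.1 to 104) and 111 in KO (104 to 119). The lymphoid-primed gate (105 in WT and 85.6 in KO), the neutrophil-primed gate (92.0 and 80.0) and the monocyte gate (107 and 78.5) were in the same range, and in WT their intervals overlapped that of the HSC gate, whereas in KO they lay below it. The early erythroid gate had 17.9 and 15.7, and the erythroblast gate 3.70 and 6.66. Of HSC-gated cells 40.6% in WT and 46.2% in KO had a Cd48 UMI at the thinned depth, as did 2.13% and 3.22% of erythroblast-gated cells.

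Procr RNA was concentrated in the HSC gate among the progenitor gates. Its level there was 24.9 CPM in WT (22.0 to 28.2, 256 UMIs) and 18.4 in KO (15.4 to 21.9, 130 UMIs), and at most 1.09 in any other progenitor gate. Outside the progenitors it was found in the endothelial gate, at 10.1 in WT and 8.75 in KO (10 and 11 UMIs). The macrophage gate was at 6.88 and 5.26, which rests on 6 and 5 UMIs in 24 and 43 cells. The thinned share of HSC-gated cells with a Procr UMI was 19.4% in WT and 13.3% in KO, against 0 of 988 erythroblast-gated WT cells and 1 of 1459 KO cells. A count of 0 allows up to 0.304% of WT cells with a UMI at that depth, and 5 of the 988 (0.506%) had one without thinning.

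Esam was also low in the other progenitor gates but was highest in the endothelial gate. It had 32.0 CPM in WT HSC-gated cells (28.7 to 35.7, 329 UMIs) and 20.8 in KO (17.6 to 24.5, 147 UMIs), and at most 2.18 in any other progenitor gate. The endothelial gate reached 250 in WT and 208 in KO, and the megakaryocyte gate 23.4 and 23.8. Of HSC-gated cells 23.6% in WT and 18.6% in KO had an Esam UMI, and of erythroblast-gated cells 0.506% and 0.685%.

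Fgd5 had 25.8 CPM in WT HSC-gated cells (22.8 to 29.1) and 22.8 in KO (19.4 to 26.6). The endothelial gate was again higher, at 58.5 and 65.2, and the lymphoid-primed (7.48 and 2.79) and neutrophil-primed (5.57 and 6.73) gates kept a low level. Ctnnal1 had 13.8 in WT HSC-gated cells (11.6 to 16.3) and 15.0 in KO (12.3 to 18.2), below the megakaryocyte gate at 27.3 and 26.6. Unlike Procr, Esam and Fgd5, Ctnnal1 was also present in the erythroblast gate, at 5.89 and 6.13.

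Cd34 and Cd27 were carried by several progenitor gates. Cd34 was the most abundant of the 9 in the HSC gate, at 248 CPM in WT (239 to 258) and 220 in KO (210 to 232), and was higher in the lymphoid-primed gate, at 290 (269 to 311) and 275 (253 to 298). Cd27 had 64.0 in WT HSC-gated cells and 75.3 in KO, against 87.8 and 107 in the lymphoid-primed gate and 34.9 and 35.7 in the neutrophil-primed gate. Both were low in the early erythroid gate, Cd34 at 11.3 and 11.1 and Cd27 at 3.62 and 3.51.

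Cd9 was highest in the megakaryocyte gate in both libraries, followed by the hepatocyte gate (119 CPM in WT and 102 in KO). The megakaryocyte gate held 497 CPM in WT and 459 in KO, whereas the HSC gate held 30.2 and 28.2. In WT the HSC gate did not stand apart from the lymphoid-primed (30.3), neutrophil-primed (26.3) or monocyte (28.9) gates beyond the counting intervals. In KO the HSC gate (24.4 to 32.4) lay below the neutrophil-primed gate at 38.7 (33.7 to 44.3) and the monocyte gate at 64.9 (50.8 to 81.8). Its interval overlapped that of the KO lymphoid-primed gate at 25.1 (18.9 to 32.8).

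**Figure D1:**
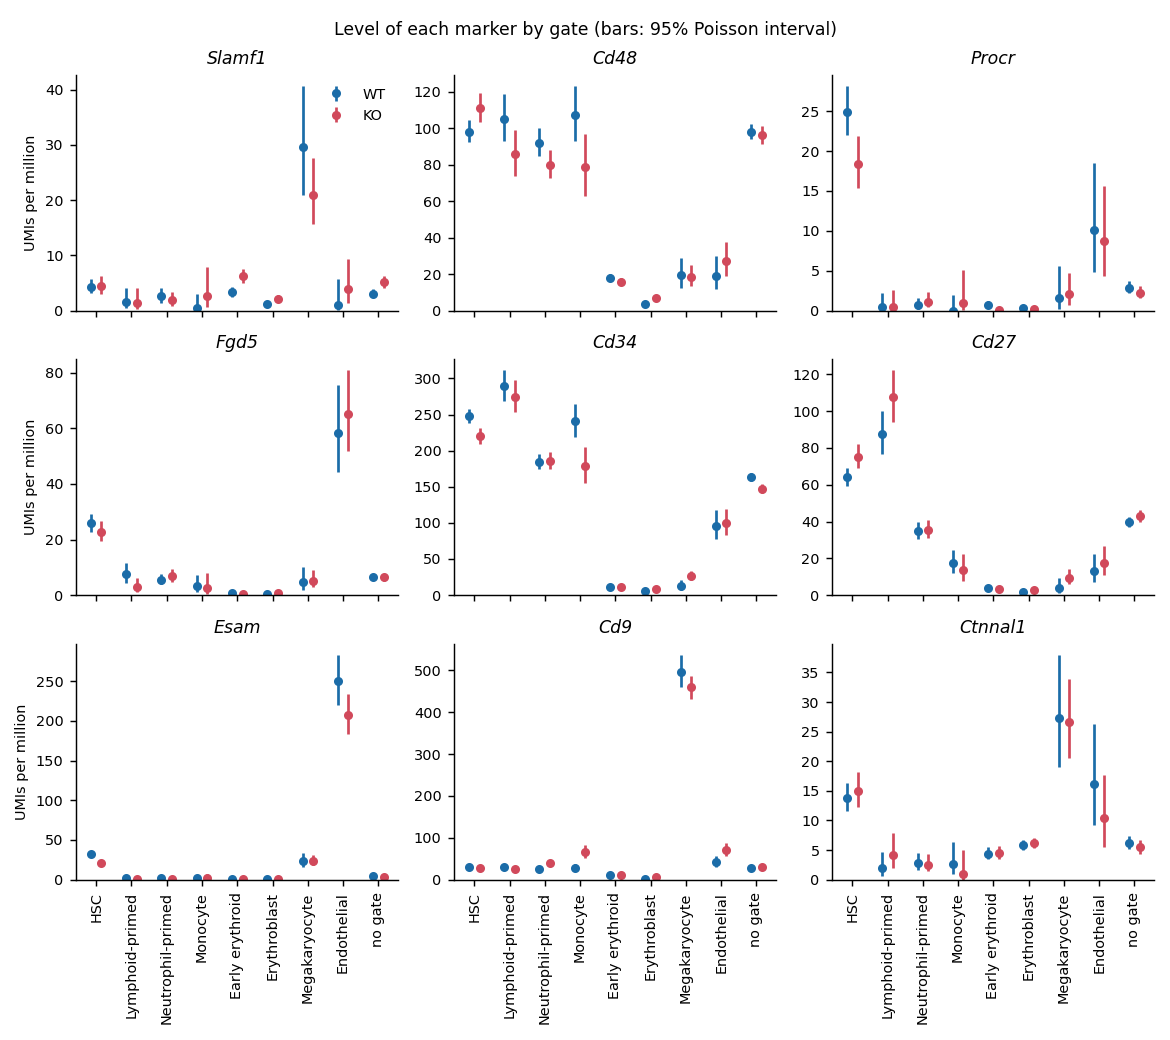
Level of each of the 9 markers (CPM, linear axis from 0) in 8 gates and in the cells of no gate, for the WT library (blue) and the KO library (red); points are sums over the cells of a gate and bars are 95% Poisson intervals. Procr was highest in the HSC gate (24.9 in WT, 18.4 in KO), Esam and Fgd5 in the endothelial gate, Slamf1 and Cd9 in the megakaryocyte gate, and Cd48 was at a like level in the HSC, lymphoid-primed and neutrophil-primed gates of WT.

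The HSC gate was then compared with the other progenitor gates within each library. Counting as past the threshold a log2 ratio over 0.32, all 9 markers were higher in the HSC gate in WT and in KO, against a background of 46.2% of 10487 genes in WT and 45% of 10241 genes in KO with at least 100 UMIs. Most of the cells compared with were erythroid-gated. Procr was 55.8-fold higher in WT and 72.2-fold in KO, rank 4 and rank 2 among those genes. Esam was 37.2-fold and 28.5-fold higher (rank 11 and 14), and Fgd5 20.2-fold and 17.9-fold (rank 38 and 43). Cd48 was 4.08-fold and 5.50-fold higher. Slamf1 had the smallest ratios of the 9, 2.22-fold in WT (log2 1.15, 0.62 to 1.66) and 1.37-fold in KO (log2 0.45, -0.15 to 1.00).

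Without the erythroid gates, the comparison separated the markers. Against the lymphoid-primed, neutrophil-primed and monocyte gates together (326 WT and 385 KO cells), Procr was 53.1-fold higher in WT and 20.2-fold in KO (rank 2 of 9090 and 8 of 8450 genes), and Esam 18.0-fold and 26.1-fold (rank 8 and 7). Ctnnal1 was 5.26-fold and 5.48-fold higher and Fgd5 4.58-fold and 4.34-fold. Cd27 was 1.44-fold and 1.49-fold higher. The log2 ratio of Cd48 was 0.00 in WT (-0.12 to 0.13) and 0.45 in KO (0.31 to 0.60), that of Cd34 0.18 and 0.09, and that of Cd9 0.13 and -0.46. Slamf1 stayed under 100 UMIs, with a log2 ratio of 1.12 (0.34 to 1.95) and 1.27 (0.35 to 2.23). The background past the threshold was 28.4% in WT and 25.8% in KO. This comparison was added after the data had been seen.

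Detection also followed the number of HSC panel genes in a cell. In the cells of the HSC gate or of no gate, the share with a Procr UMI went from 1.73% of WT cells with no panel gene to 29.9% of those with 4 or more (127 cells), and in KO from 0.538% to 27.4% (84 cells). Esam went from 4.34% to 41.7% in WT and from 2.96% to 29.8% in KO, Fgd5 from 5.49% to 28.3% and from 5.65% to 23.8%, and Ctnnal1 from 5.78% to 20.5% and from 2.96% to 17.9%. Cd48 went the other way, from 48.3% to 15.7% in WT and from 44.6% to 31.0% in KO, with its highest shares, 54.4% in both libraries, at 2 panel genes. Cd34 was highest in the middle of the range, at 85.2% in WT with 2 panel genes against 56.9% with none and 69.3% with 4 or more. Slamf1 was found in 1.48% to 4.72% of WT cells and in 2.24% to 5.44% of KO cells over the 5 steps, and its intervals overlapped between any of them.

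**Figure D2:**
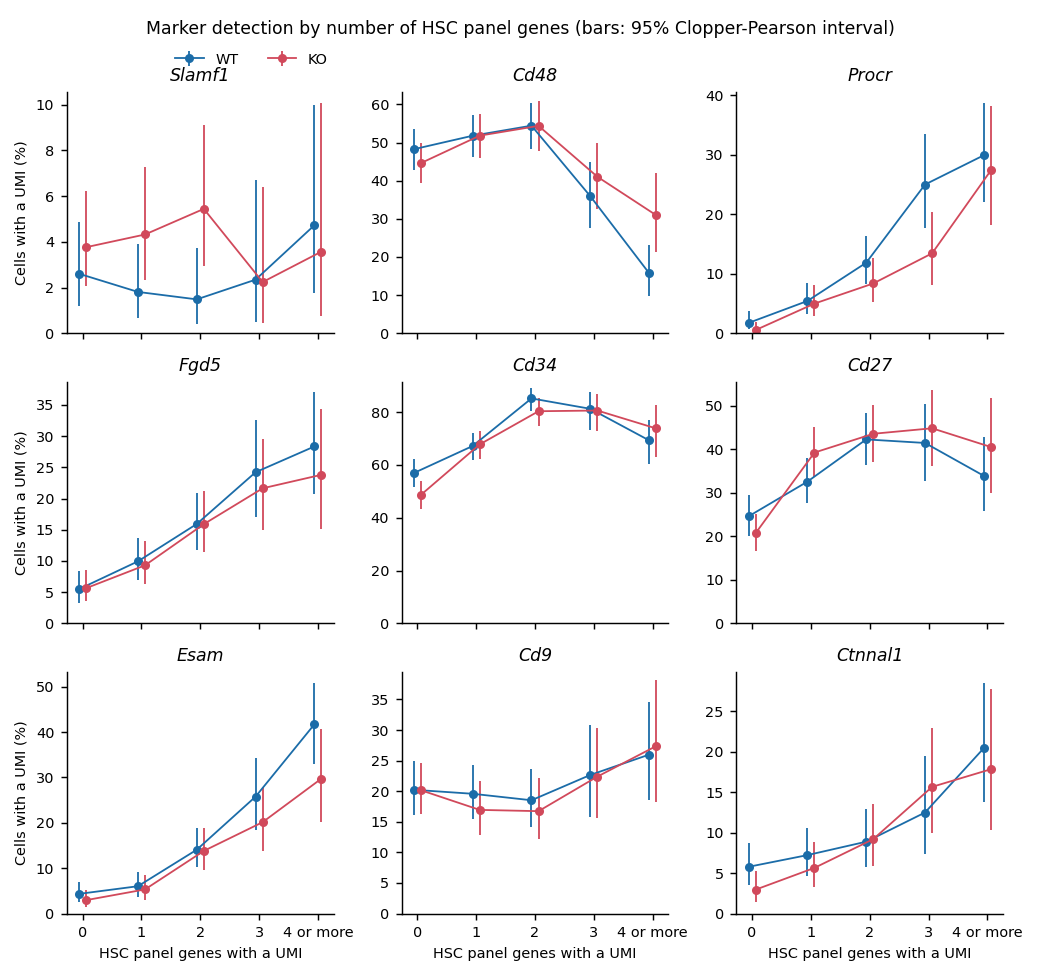
Share of cells with a UMI of each marker (percent, linear axis from 0, at 8500 UMIs per cell) by the number of HSC panel genes with a UMI, in cells of the HSC gate or of no gate; WT is blue, KO is red and bars are 95% Clopper-Pearson intervals. Procr, Esam, Fgd5 and Ctnnal1 climb with the panel, Cd48 drops to 15.7% in WT and 31.0% in KO, and Slamf1 stays under 6%.

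The RNA version of the sorting scheme was examined next, calling a cell positive when it had a UMI at the thinned depth. In the HSC gate, 6 of 525 WT cells (1.14%, 0.421 to 2.47) and 11 of 457 KO cells (2.41%, 1.21 to 4.27) were Slamf1-positive and Cd48-negative, the combination that the protein scheme calls LT-HSC. Both were positive in 1.33% of WT and 1.75% of KO cells. Most cells had neither (58.3% in WT and 51.4% in KO) or Cd48 alone (39.2% and 44.4%). Without thinning, 2.67% of WT and 2.19% of KO HSC-gated cells were Slamf1-positive and Cd48-negative. The order of the libraries turned with the depth, so none is read from these shares.

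Conversely, cells picked by that RNA combination from all cells, without a Kit or Ly6a step, were mostly not HSC-gated. The protein scheme applies the combination to LSK cells, so these shares do not test that scheme. Of all cells, 41 in WT and 79 in KO were Slamf1-positive and Cd48-negative, of which 14.6% (5.57 to 29.2) and 13.9% (7.16 to 23.6) were in the HSC gate. Both shares had intervals that held the share of HSC-gated cells among all cells (15.8% and 11.3%). The early erythroid gate supplied 19.5% and 22.8% of the picked cells, the erythroblast gate 19.5% and 24.1%, the megakaryocyte gate 12.2% and 6.33%, and the cells of no gate 22.0% and 21.5%. Absence of Cd48 UMIs alone gave 12.9% HSC-gated cells in WT and 8.0% in KO, where erythroblast-gated cells lacked a Cd48 UMI in most cases too.

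Procr picked HSC-gated cells far more often. Of 151 Procr-positive WT cells 67.5% (59.5 to 74.9) were HSC-gated, and of 101 KO cells 60.4% (50.2 to 70.0). Adding absence of Cd48 gave 70.6% and 62.3%, adding Fgd5 77.5% and 67.9%, and adding Esam 76.9% and 72.7%, with intervals that overlapped that of Procr alone. Esam alone gave 51.2% and 38.6%, and Fgd5 alone 47.8% and 40.8%. These combinations were sparse: Procr was found in 19.4% of HSC-gated WT cells and 13.3% of KO cells, and Procr with Esam in 7.62% and 5.25%. Cd34, by contrast, was found in 80.4% and 79.2% of HSC-gated cells, and 31.8% and 27.7% of Cd34-positive cells were HSC-gated.

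Procr, Fgd5, Esam and Ctnnal1 were also counted together. This set was chosen after their levels in the HSC gate had been seen. A rising share of HSC-gated cells was therefore set by the choice, and the shares only describe these cells. Of WT cells with none of the 4, 9.61% were HSC-gated, and the share was 34.9% with 1, 60.0% with 2, 75.9% with 3 and 83.3% with all 4 (5 of 6 cells). In KO the shares were 7.32%, 31.4%, 43.2%, 55.6% and 100% (3 of 3 cells). Among cells with 2 of the 4, endothelial-gated cells made up 19 of 130 in WT and 28 of 111 in KO.

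**Figure D3:**
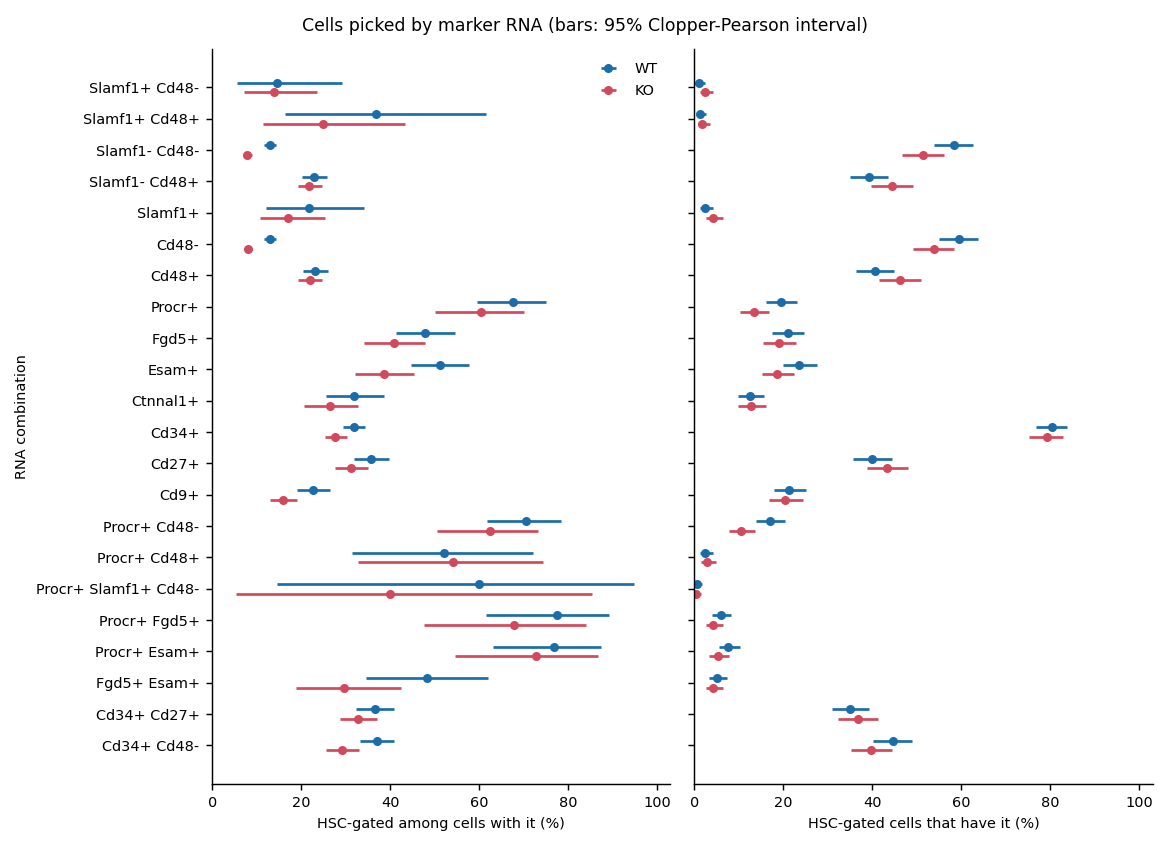
Cells picked from all cells by marker RNA at 8500 UMIs per cell, without a Kit or Ly6a step. Left, share of the picked cells that were HSC-gated (percent). Right, share of HSC-gated cells that carried the combination (percent). WT is blue, KO is red and bars are 95% Clopper-Pearson intervals; Slamf1+ Cd48- gives 14.6% and 13.9% on the left, and Procr+ gives 67.5% and 60.4%.

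Within the HSC gate, Procr was found together with Esam and with Ctnnal1 more often than the product of their shares, and Cd48 less often with each of the 3. Of the 36 pairs, the product of the single shares lay outside the interval of the share of cells with both genes for 7 pairs in WT and 6 in KO. Procr and Esam were found together in 7.62% of WT cells against a product of 4.59%, and in 5.25% of KO cells against 2.48%. Procr and Ctnnal1 shared 4.76% of WT cells against 2.44% and 3.50% of KO cells against 1.69%. Esam and Ctnnal1 were above their product in WT (6.10% against 2.97%), whereas in KO (3.50% against 2.36%) the product lay inside the interval (2.01 to 5.62).

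Cd48 was on the other side. Cd48 and Procr were found together in 2.48% of WT cells against a product of 7.88%, and in 2.84% of KO cells against 6.16%. Cd48 with Esam (4.95% against 9.58% in WT, 5.47% against 8.59% in KO) and with Ctnnal1 (3.05% against 5.10%, 3.50% against 5.86%) were also below the product, and Cd48 with Fgd5 was so in WT only (5.71% against 8.50%), a difference between libraries that was not tested. In KO, Slamf1 with Cd34 was also below (1.53% against 3.29%). Thus 28.5% of Cd48-negative WT cells of the gate had a Procr UMI against 6.10% of Cd48-positive ones, and 19.5% against 6.16% in KO. Slamf1 and Cd48 shared 1.33% of WT cells against a product of 1.00% and 1.75% of KO cells against 1.92%, inside the interval. All cells had equal depth after thinning, and these shares are descriptions.

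Levels were also compared across the gates, as a description without a test. The 24 points were the gates other than the stromal one, and the cells of no gate, of both libraries. Points of a library share its depth. Over them, Pearson's r of log2 levels was 0.93 for Cd48 and Cd34, 0.91 for Cd34 and Cd27, 0.85 for Fgd5 and Esam, 0.77 for Procr and Fgd5, and -0.12 for Slamf1 and Cd48. Of 11469 other genes, those most like each marker were Mecom (r = 0.92), itself in the HSC panel, and Slit2 (0.90) for Procr, Myct1 (0.93) and Tek (0.92) for Esam, and Thsd1 (0.95) and Fam43a (0.93) for Fgd5. They were Parvg (0.98) and Arhgdib (0.97) for Cd48, Tmem173 (0.97) and Il16 (0.97) for Cd34, and Hoxa7 (0.94) and Sox4 (0.93) for Cd27. Slamf1 was most like Sdhaf1 (0.87) and Trnau1ap (0.83), Cd9 like Slc25a11 (0.92) and Creld1 (0.86), and Ctnnal1 like Mast4 (0.87) and Zfr (0.81).

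The WT and KO libraries were then compared within the HSC gate. Esam was lower in the KO library, 20.8 against 32.0 CPM (log2 KO/WT -0.62, 95% counting interval -0.91 to -0.34), and so was Procr, 18.4 against 24.9 (-0.44, -0.75 to -0.13). Of the 8 markers with at least 100 UMIs these 2 were past the threshold (log2 0.32 in either direction), both lower in KO, against a background of 11.3% of 8766 genes. Cd34 (log2 -0.17, -0.26 to -0.08), Cd27 (0.23, 0.07 to 0.40) and Cd48 (0.18, 0.05 to 0.32) were inside the threshold. Fgd5 (-0.18, -0.47 to 0.11), Cd9 (-0.10, -0.36 to 0.16) and Ctnnal1 (0.12, -0.26 to 0.49) had intervals that held 0. For Slamf1, with 44 and 31 UMIs, the log2 KO/WT was 0.04 (-0.68 to 0.73), and a difference inside that interval was not detectable at this depth. The median of the 8 was -0.14, and that of all genes 0.01.

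The HSC gates of the 2 libraries also differed in proliferation RNA, and its part in the lower Esam and Procr levels was not tested. Of WT HSC-gated cells 25.5% had no UMI of the proliferation genes Mki67 and Top2a, against 7.88% of KO cells (134 and 36 cells). In these cells Procr was at 52.6 CPM in WT (42.4 to 64.6) and 17.4 in KO (7.01 to 35.9, 7 UMIs), a log2 KO/WT of -1.59 (-2.95 to -0.49), and Esam at 61.2 and 24.9 (-1.30, -2.40 to -0.36). In the cells with a Mki67 or Top2a UMI, Procr was at 19.2 and 18.5 (-0.058, -0.41 to 0.29), inside the threshold, and Esam at 26.1 and 20.6 (-0.34, -0.66 to -0.03). The split was made after the data had been seen.

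The sexes also differed between the libraries. Within the KO HSC gate, Esam was at 11.2 CPM in 68 cells with Y-linked UMIs and without Xist and at 22.5 in 350 cells with Xist alone (log2 -1.01, -2.003 to -0.15), and Procr at 13.1 and 20.2 (-0.63, -1.55 to 0.18). With Xist-positive, Y-negative cells of both libraries, the log2 KO/WT was -0.51 for Esam (-0.83 to -0.20) and -0.30 for Procr (-0.65 to 0.03), so that Procr was no longer past the threshold. Whether sex, embryo or genotype set these levels cannot be told apart.

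Endothelial RNA was lower in the KO HSC gate as well. The endothelial panel summed to 14.51 CPM in the WT and 4.25 in the KO HSC gate, which is 0.534% and 0.183% of its level in the endothelial gate. That percentage of endothelial Esam is 1.34 and 0.380 CPM. This takes the ratio of Esam to the panel from the endothelial gate, and the part of endothelial RNA in the result was not tested. In HSC-gated cells without any endothelial panel UMI (474 in WT and 430 in KO), the log2 KO/WT was -0.70 for Esam and -0.64 for Procr. The hepatocyte panel was at 53.6 in WT and 102 in KO and the erythroblast panel at 20.6 and 55.7, and their part in the result was not tested. Scrublet called 0.571% of WT and 3.50% of KO HSC-gated cells doublets, and without these the log2 KO/WT was -0.55 for Esam and -0.32 for Procr.

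**Figure D4:**
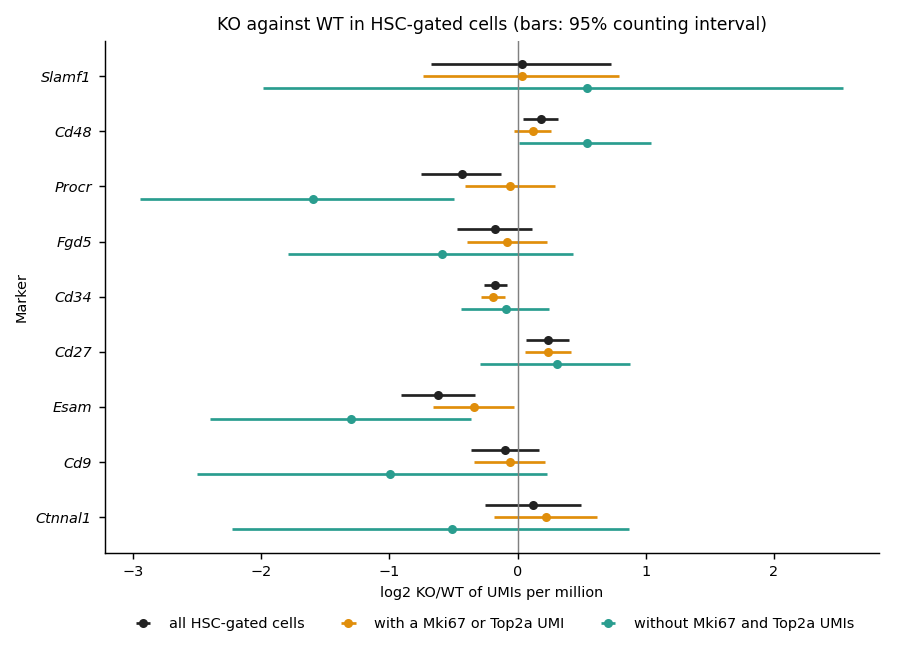
Log2 KO/WT of CPM for the 9 markers in all HSC-gated cells (black), in those with a Mki67 or Top2a UMI (orange; 391 WT and 421 KO cells) and in those without (green; 134 WT and 36 KO cells); bars are 95% counting intervals and the vertical line is no difference. The intervals of Esam lie left of the line in all 3 sets (-0.62, -0.34 and -1.30), and those of Procr in all cells (-0.44) and in the cells without (-1.59) but not in the cells with (-0.058).

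Other genes that serve in sorting were compared in the same way. Of 16 further sorting genes, 13 had at least 100 UMIs in the HSC gate and none was past the threshold between KO and WT, with a median log2 of -0.14 against 0.01 for all genes. Kit, the stem cell factor receptor, was at 102 and 86.5 CPM (log2 -0.24), Ly6a at 22.9 and 26.5 (0.21) and Emcn, an endothelial and stem cell sialomucin, at 35.3 and 36.3 (0.04). Robo4 (-0.31), Tek (-0.20) and Cd93 (-0.11) were lower in KO, and Cd47 (0.05) and Cd82 (0.01) higher, all with intervals that held 0. Kit (-0.38 to -0.09), Ptprc (log2 -0.25, -0.43 to -0.08) and Cd63 (-0.14, -0.28 to -0.005) were lower in KO with intervals that left out 0. Of 7 other SLAM family genes 2 had enough UMIs, and both were past the threshold, against the same 11.3%. Ly9 was at 8.38 in WT and 12.9 in KO (log2 0.62, 0.18 to 1.07), and Cd84 at 16.2 and 9.78 (-0.73, -1.15 to -0.31). Ly9 overlaps Cd244a, another SLAM gene, on the opposite strand. Ly9 and Cd84 were thus on opposite sides in this gate.

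In the erythroid gates and in the cells of no gate, Slamf1 was higher in KO. It was at 3.30 CPM in WT and 6.21 in KO early erythroid-gated cells (63 and 99 UMIs, log2 0.91, 0.44 to 1.39), at 1.12 and 2.17 in erythroblast-gated cells (0.95, 0.36 to 1.56) and at 3.06 and 5.08 in the cells of no gate (0.73, 0.24 to 1.22). In the early erythroid gate it was the 1 of 6 markers past the threshold (background 8.09%). In the cells of no gate 2 of 8 were (background 8.38%), Slamf1 and Esam, the latter lower in KO at 3.60 against 4.76 (log2 -0.40, -0.90 to 0.08). When gates were set on all UMIs in place of thinned cells, the early erythroid value was -0.030, so the call there did not hold. Within KO early erythroid-gated cells, Slamf1 was lower in the Y-positive than in the Xist-positive cells (log2 -1.23, -2.43 to -0.21). The same difference was -0.65 in the erythroblast gate (-1.78 to 0.33) and 0.76 in the cells of no gate (-0.04 to 1.52), and both intervals held 0.

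The megakaryocyte panel was higher in KO in these gates as well, at 31.5 and 39.1 CPM in the early erythroid gate, 15.7 and 44.2 in the erythroblast gate and 70.3 and 239 in the cells of no gate. In the megakaryocyte gate there were 0.206 Slamf1 UMIs per 100 panel UMIs in WT and 0.137 in KO. The early erythroid gate had 10.5 and 15.9 Slamf1 UMIs per 100, the erythroblast gate 7.17 and 4.91 and the cells of no gate 4.36 and 2.12. The part of megakaryocyte RNA in the Slamf1 levels of these gates was not tested.

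In the erythroblast gate 5 of 6 markers were past the threshold, all higher in KO, against a background of 7.88%. Besides Slamf1 these were Cd48 (3.70 and 6.66 CPM, log2 0.85), Cd34 (5.89 and 8.47, 0.53), Cd27 (1.49 and 2.87, 0.95) and Cd9 (2.49 and 5.31, 1.09), all at a small part of their HSC-gate level. The neutrophil-primed panel (25.5 in WT and 44.8 in KO) and the hepatocyte panel (47.1 and 80.3) were higher in the KO erythroblast gate too, and their part in the result was not tested. Within the KO library, Cd48 (log2 male over female -1.09), Cd34 (-0.99), Cd27 (-1.22) and Cd9 (-1.38) were lower in the Y-positive erythroblast-gated cells. The share of cells with a Cd34 UMI went against its level, at 3.24% of WT and 2.33% of KO cells, so no order is read from it. The calls depended on the gate: with gates on all UMIs the log2 KO/WT of Cd48 was -0.0014, with a stricter gate that of Cd34 was 0.058, and with clusters those of Slamf1, Cd34 and Cd9 were -1.76, -0.76 and -0.025. Clusters named erythroblast held 199 and 124 WT cells and 275 and 167 KO cells, against 988 and 1459 cells in the gate.

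Among the other progenitor gates, Cd9 was higher in the KO neutrophil-primed gate, at 38.7 against 26.3 CPM (log2 0.56, 0.26 to 0.86), 1 of 4 markers past the threshold there (background 10.9%), and stayed between 0.39 and 0.81 under the alternatives. Its interval held 0 with gates on all UMIs (0.39) and in cells without Mki67 and Top2a UMIs (0.81). The megakaryocyte panel was also higher in the KO neutrophil-primed gate, at 29.3 against 13.5 CPM, and its part in the result was not tested. In the lymphoid-primed gate 0 of 4 were, where 15.3% of genes were. In the monocyte gate, with 54 WT and 53 KO cells, 3 of 3 were, where 26% of genes were: Cd48 (107 and 78.5 CPM, log2 -0.45, -0.83 to -0.08) and Cd34 (241 and 179, -0.43, -0.68 to -0.19) were lower in KO, and Cd9 (28.9 and 64.9, 1.17, 0.64 to 1.71) was higher. There the KO cells held less of the neutrophil-primed panel (779 against 1293 CPM) and more of the macrophage (1439 against 762) and megakaryocyte (570 against 183) panels, whose part in the result was not tested. In clusters named from the same markers Cd34 was at -0.033 and Cd9 at 0.23. In Xist-positive, Y-negative cells Cd48 was at -0.25, Cd34 at -0.28 and Cd9 at 0.55, and KO Cd9 was higher in Y-positive than in Xist-positive cells (log2 2.34, 1.62 to 3.06). KO Cd34 was lower in the Y-positive cells of this gate (-0.91, -1.68 to -0.22), and Cd48 was at -0.67 (-1.80 to 0.29). Procr had 1 UMI or none in each library in the lymphoid-primed and monocyte gates, so no difference could be read there.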

How the data were processed

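Cells of E14.5 fetal livers, labelled as sorted LSK cells, were profiled with the 10x 3' v3 chemistry, 1 library per genotype. The authors aligned the reads with Cell Ranger (6.0.0, per the submitters' processing notes) to GRCm38 and deposited the UMI counts of each gene in each cell without normalization. Gene positions came from GENCODE vM21, where 32158 of 32285 gene IDs were found, and promoters from RefSeq (GRCm38.p6).

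The members and lists were chosen with earlier results of these data known. The cell filter asked for 1000 or more genes and a mitochondrial share of 20% or less, and cells were then thinned without replacement to 8500 UMIs, the largest multiple of 500 that kept 90% of cells in each library. The number of panel genes needed was set after the data had been seen: 2 for the HSC, lymphoid-primed, mast cell and basophil and stromal gates, 4 for macrophages, 5 for hepatocytes and 3 for the others. Erythroblast took precedence over early erythroid, cells of several gates (221 WT and 274 KO) were set apart, and the stromal gate held 1 cell in each library. Doublets called by Scrublet (expected rate 5%) (3.63% of the WT and 6.19% of the KO library) were kept in the main setting.

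UMIs of unthinned cells were summed per gate. Levels have exact Poisson intervals, shares exact Clopper-Pearson intervals and log2 ratios exact conditional intervals, all at 95% and for counting error only. With 1 library per genotype no test was made; a gene with at least 100 UMIs was counted as past the threshold at a log2 ratio of 0.32 in size, and background percentages are the share of all such genes. The limit for a count of 0 is 3 counts. All 9 markers, 16 sorting genes, 7 SLAM genes and, per marker, the 2 genes of highest Pearson correlation of log2(CPM + 1) were named by rule. The alternatives were gates on all UMIs, 1 more panel gene, clusters (scanpy 1.11.5, 20 components, 20 neighbours, 2000 variable genes without the markers, resolution 1), no doublets, Xist-positive Y-negative cells, at least 2000 genes, other scalings, and unthinned or 2-UMI detection. Splits by proliferation and endothelial UMIs were added later. The interval code was checked on simulated counts.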

Additional observations from a re-analysis of the deposited data

Results flagged for a closer look

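Cd48 and Cd34 had KO/WT counting intervals that left out 0 in opposite directions in different gates, which flagged them; the difference between gates was not tested. The log2 KO/WT of Cd48 was 0.18 in the HSC gate and 0.85 in the erythroblast gate, against -0.30 in the lymphoid-primed, -0.20 in the neutrophil-primed and -0.45 in the monocyte gate. That of Cd34 was 0.53 in the erythroblast gate, against -0.17 in the HSC gate, -0.43 in the monocyte gate and -0.15 in the cells of no gate. The erythroblast values rest on 122 and 227 UMIs of Cd48 and on 194 and 289 of Cd34, and neither call held under every alternative. With gates on all UMIs that of Cd48 was -0.0014. That of Cd34 was 0.058 with a stricter gate, 0.26 in Xist-positive, Y-negative cells and, reversed, -0.76 with clusters.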

How the results depend on the processing

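No paired analysis was possible because there was 1 library for each genotype. The splits by proliferation and endothelial UMIs, and the other gates, were chosen after seeing the data. The lower Esam and Procr values in the KO HSC gate kept their sign under all 12 alternatives, from -1.30 to -0.34 for Esam and from -1.59 to -0.058 for Procr. Procr was no longer past the threshold in Xist-positive, Y-negative cells (-0.30) and in cells with Mki67 or Top2a UMIs (-0.058). HSC-gated cells numbered 286 WT and 247 KO with the stricter gate and 361 and 213 with clusters. A cluster of 207 WT and 216 KO cells, with Mecom and Hlf among its leading genes, stayed unnamed. The clusters thus do not hold the same cells as the gates. With clusters the log2 KO/WT was 1.09 for Slamf1, 0.34 for Cd48, -0.055 for Cd34 and -1.17 for Esam, and with the stricter gate 0.34 for Cd48. In cells without Mki67 and Top2a UMIs it was 0.54 for Cd48, -1.59 for Procr, -0.59 for Fgd5, -1.30 for Esam, -0.99 for Cd9 and -0.51 for Ctnnal1, and in cells with them -0.058 for Procr. The values without them rest on only 36 KO cells. Those held 44 UMIs of Cd48, 7 of Procr, 9 of Fgd5, 10 of Esam, 6 of Cd9 and 5 of Ctnnal1.

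The log2 ratio of the HSC gate over the other progenitor gates stayed above 0 for all 9 markers in each of its 9 alternatives, and 8 or 9 were past the threshold in KO and 9 in WT. In the main setting 46.2% of genes in WT and 45% in KO were past it, and no such share is given for the alternatives. The log2 ratio was with the stricter gate in WT 1.74 for Slamf1, 1.56 for Cd48, 6.53 for Procr, 4.81 for Fgd5, 3.23 for Cd27 and 2.20 for Ctnnal1, and in KO 1.99 for Cd48, 3.30 for Cd27 and 1.93 for Ctnnal1. It was with gates on all UMIs in WT 2.59 for Cd48, 7.78 for Procr, 5.60 for Fgd5, 3.16 for Cd34, 3.22 for Cd27, 6.95 for Esam and 2.04 for Cd9, and in KO 2.99 for Cd48, 4.98 for Fgd5, 3.08 for Cd34, 3.37 for Cd27, 6.01 for Esam and 1.69 for Cd9. It was with clusters in WT 1.18 for Cd48, 7.10 for Procr, 3.59 for Fgd5, 0.82 for Cd34, 1.16 for Cd27, 6.65 for Esam, 0.64 for Cd9 and 2.59 for Ctnnal1, and in KO 2.77 for Slamf1, 1.77 for Cd48, 3.54 for Fgd5, 1.11 for Cd34, 1.61 for Cd27, 0.29 for Cd9 and 2.24 for Ctnnal1. It was with median-of-ratios scaling in WT 1.77 for Cd48, 2.25 for Cd34, 2.50 for Cd27 and 1.47 for Cd9, and in KO 2.21 for Cd48, 2.26 for Cd34, 2.65 for Cd27 and 1.00 for Cd9. It was as a mean over cells in WT 1.70 for Cd48, 6.65 for Procr, 2.35 for Cd34 and 5.66 for Esam. It was without doublets in WT 7.08 for Procr, 2.61 for Cd34 and 2.95 for Cd27, and in KO 2.67 for Cd48, 2.71 for Cd34 and 6.06 for Esam.

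The log2 KO/WT outside the HSC gate changed sign 7 times: with gates on all UMIs it was -0.030 for Slamf1 in the early erythroid gate and -0.0014 for Cd48 in the erythroblast gate, and in the erythroblast gate it was -1.76 for Slamf1, -0.76 for Cd34 and -0.025 for Cd9 with clusters, and -0.040 for Cd9 in cells without proliferation UMIs. In the latter cells Cd48 was at 2.25 in the monocyte gate. The cause was not tested.

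Shares in the HSC gate depended on depth. In unthinned WT cells 2.67% were Slamf1-positive and Cd48-negative, 3.24% had both, 45.3% neither and 48.8% Cd48 alone, and asking for 2 UMIs gave 0.190%, 0%, 82.3% and 17.5%. In unthinned KO cells 41.1% had neither and 54.0% Cd48 alone, and 2 UMIs gave 0.656% for Slamf1 alone, 0% for both, 76.4% for neither and 23.0% for Cd48 alone. The stricter gate gave 71.7% with neither and 24.8% with Cd48 alone in WT, and 60.7% and 36.0% in KO. Clusters gave 45.1% and 50.7% in KO, and gates on all UMIs 49.4% with Cd48 alone. The HSC-gated share of Slamf1-positive, Cd48-negative KO cells was 5.06% with the stricter gate, 6.33% with clusters and 25.0% with 2 UMIs. With genes of at least 20 UMIs, 21.3% were past the threshold in the HSC gate. In all, 92 of the values for the main comparisons moved and 277 stayed within the counting interval or 1.5 times the count, and outside the HSC gate 19 moved, 7 changed sign and 112 stayed.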
